A study of Mus musculus with 2 samples.

Results

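The chemokine genes Ccl17, Ccl22 and Ccl24 and the chemokine receptor genes Ccr4, Ccr8 and Ccr3 were followed across the immune cells of mouse melanomas. They were chosen by gene symbol, and all 6 were found among the 32285 genes of the count matrices. Live CD45-positive cells had been sorted on day 14 from tumours grown under the skin from B16-F10, a mouse melanoma cell line. In the knockout tumours the line carried a knockout of FDPS, the farnesyl diphosphate synthase of the mevalonate pathway, and in the control tumours its genotype was labelled WT. The labels name no drug, no age and no strain of mouse, and how the knockout was made, or whether the line was 1 clone, is not stated in the sources used. The knockout is labelled for the engrafted tumours, while the cells sorted were immune cells. Per the labels 3 tumours entered each group, and each group gave 1 droplet library whose cells cannot be tied to a tumour. With 1 library per group there is no replicate and no test. Each comparison below is of the knockout library with the control library, and every interval is a 95% interval that covers counting error only. The study used these cells to describe the immune infiltrate of FDPS-deficient tumours.

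Chemokines are small secreted proteins that steer leukocytes through G protein-coupled receptors. Ccl17 and Ccl22 are both ligands of Ccr4, a receptor of type 2 helper cells, regulatory T cells and innate type 2 lymphocytes, and both are typical products of dendritic cells (DCs). Ccl24, or eotaxin-2, is a product of alternatively activated macrophages and binds Ccr3, the receptor of eosinophils. Ccr8 is carried by regulatory T cells in tumours and by type 2 lymphocytes. Its best known mouse ligands are Ccl1 and Ccl8. In tumours, Ccl22 from DCs is known for contacts between DCs and regulatory T cells.

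After filtering, 8062 knockout and 8595 control cells remained, with medians of 10976 and 13629 unique molecular identifiers (UMIs, counts of single captured transcripts) per cell. Cells were assigned to a type by a gate on marker genes, none of which is one of the 6 genes, and 736 knockout cells (9.13%) and 1006 control cells (11.7%) stayed unassigned. The libraries differed in make-up. There were 110 knockout and 160 control mature DCs (marked by Ccr7 and Fscn1), 527 and 154 type 2 conventional DCs (cDC2), 265 and 136 type 1 conventional DCs (cDC1), 716 and 1266 monocytes, and 595 and 2896 macrophages. Regulatory T cells numbered 157 and 71 and other CD4 T cells 655 and 57. Cells with the markers of group 2 innate lymphoid cells (ILC2) numbered 87 and 0. The sort marker gene Ptprc (CD45) was detected in 91.2% or more of the cells of each of these types, mature DCs of the control library being lowest. The targeted gene can be checked only in the few melanoma cells that passed the sort, where Fdps stood at 89.7 CPM (UMIs of the gene per 1000000 UMIs of the cells) in 14 knockout cells and 402 CPM in 244 control cells. Fdps was also lower in immune cells, for example at 16.2 CPM in knockout and 39.2 CPM in control macrophages. It stood at 287 and 391 CPM in plasmacytoid DCs and at 47.3 and 167 CPM in cDC2. In T cells outside the CD4, CD8 and regulatory types it stood at 17.9 and 80.5 CPM. Whether the gap in melanoma cells came from the knockout was not tested. The libraries shared 30 barcodes, of which 14 passed the filters in both.

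Ccl17 and Ccl22 are neighbours. On GRCm38 (GENCODE vM21), Ccl22 (ENSMUSG00000031779) lies at chr8:94745590-94751699 and Ccl17 (ENSMUSG00000031780) at chr8:94810453-94812036, both on the plus strand. They are 58753 bases apart, with Cx3cl1 as the 1 protein-coding gene between them. Ccl24 (ENSMUSG00000004814) lies at chr5:135569937-135573049 on the minus strand. The 3 receptor genes are on chromosome 9: Ccr4 (ENSMUSG00000047898) at chr9:114490316-114504916 on the minus strand, and Ccr8 (ENSMUSG00000042262) at chr9:120092114-120094906 and Ccr3 (ENSMUSG00000035448) at chr9:124021972-124031689 on the plus strand. None of the 6 overlaps another annotated gene. The sequences just upstream of Ccl17 and Ccl22 are shown because by summed UMIs these neighbouring genes peaked in different types of DC, as described after them. They are from RefSeq (GRCm38.p6, plus strand), at chr8:94810203-94810452 for Ccl17 and chr8:94745434-94745589 for Ccl22, and capitals mark motif matches. The RefSeq start of Ccl22 lies 94 bases past the GENCODE start, and those 94 of the 250 bases searched are not shown.
Ccl17: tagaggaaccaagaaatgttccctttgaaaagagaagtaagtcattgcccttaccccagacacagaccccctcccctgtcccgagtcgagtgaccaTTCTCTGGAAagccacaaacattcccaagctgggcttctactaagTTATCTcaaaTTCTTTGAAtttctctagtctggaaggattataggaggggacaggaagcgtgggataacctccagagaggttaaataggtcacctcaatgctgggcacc
Ccl22: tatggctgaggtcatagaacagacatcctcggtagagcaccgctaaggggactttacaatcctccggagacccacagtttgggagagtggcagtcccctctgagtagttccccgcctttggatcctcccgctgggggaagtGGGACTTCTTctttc
The motifs searched, on both strands of the 250 bases before the RefSeq start, were the STAT motifs TTCNNNNGAA and TTCNNNGAA, the AP-1 motif TGANTCA, the GATA motif AGATAA, the interferon regulatory factor motif GAAANNGAAA and the NF-kappaB consensus. Ccl17 held TTCNNNNGAA from 154 to 145 bases before its start, the spacing that STAT6, the factor of IL-4 and IL-13 signalling, is known to prefer. It also held TTCNNNGAA from 99 to 91 bases before it and AGATAA, on the opposite strand, from 109 to 104 bases before it. The matches do not overlap, and both STAT motifs read the same on either strand. Of 32851 promoters of this length, 5.85% held TTCNNNNGAA, 7.02% TTCNNNGAA and 9.99% AGATAA. The Ccl22 window held none of these motifs. Of all promoters 6.75% held TGANTCA, 2.98% GAAANNGAAA and 7.25% the NF-kappaB consensus. A looser form of the NF-kappaB motif, which was searched first and narrowed to the consensus after its matches were seen, was matched in Ccl22 from 109 to 100 bases before the RefSeq start (the capitals in its sequence) and in 16.9% of all promoters. The looser form was not matched in Ccl17. A match is a description of letters and not of a bound site.

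Over all retained cells, Ccl24 and Ccl17 took a larger share of transcripts in the knockout library, and Ccl22 about the same share in both. Ccl24 had 2650 knockout and 722 control UMIs, which is 23.4 and 4.19 CPM and a ratio of 5.59 (5.15 to 6.08). Ccl17 had 1905 and 1440 UMIs, at 16.9 and 8.36 CPM, a ratio of 2.02 (1.88 to 2.16). Ccl22 had 1692 and 2160 UMIs, at 14.97 and 12.5 CPM, a ratio of 1.19 (1.12 to 1.27). These totals mix how many cells of a type a library held with the level within the type, so the levels per type are given next. Background from free RNA was read from CD8 T cells, in which the ligands are not expected. From the macrophage genes C1qa, C1qb and C1qc, free RNA was estimated at 3.06% of CD8 T cell UMIs for knockout cells and 2.20% for control cells. This predicts 18.7 and 8.86 UMIs of Ccl17 there, against 18 and 3 found. It predicts 16.6 and 13.3 UMIs of Ccl22, against 11 and 17 found. For Ccl24 it predicts 26.0 and 4.44 UMIs, against 25 and 1 found. The ligand counts of CD8 T cells, all under 1 CPM, were thus read as background.

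**Figure D1:**
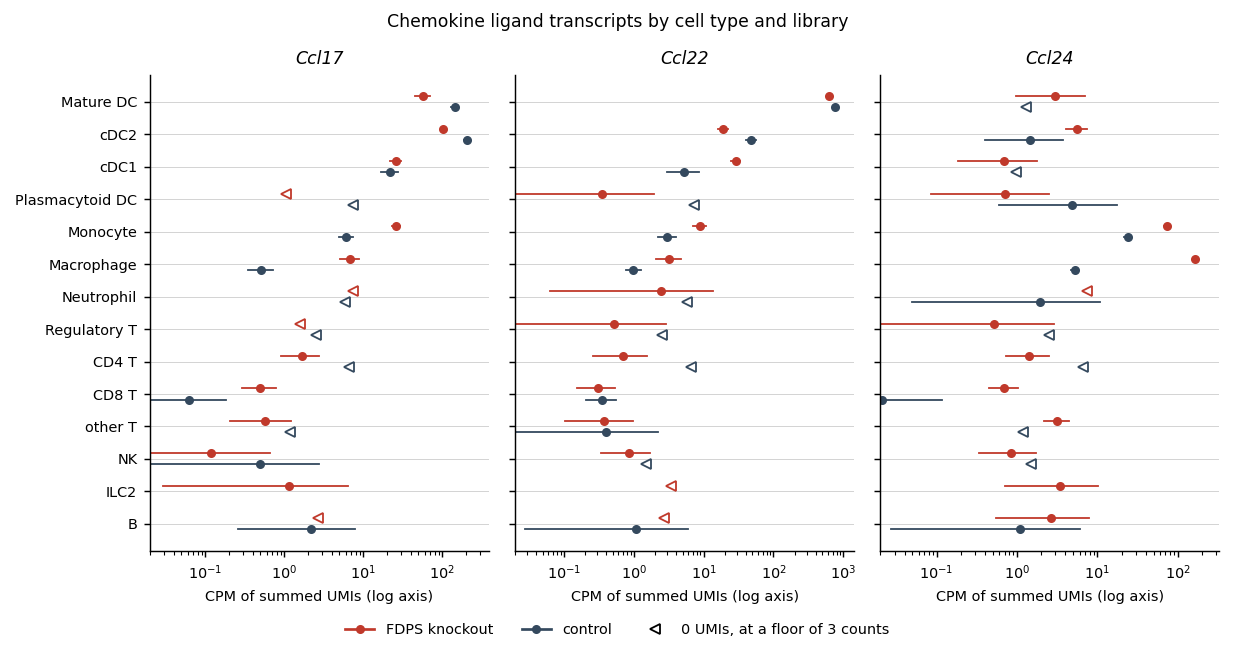
CPM (log axis) of Ccl17, Ccl22 and Ccl24 in each cell type with at least 30 cells, knockout library (red) above control library (dark), with exact Poisson 95% intervals of the summed UMIs, and open triangles for 0 UMIs drawn at a floor of 3 counts. Ccl22 peaks in mature DCs of both libraries (628 and 772 CPM), Ccl17 in cDC2 (103 and 205 CPM), and Ccl24 in macrophages of the knockout library (165 and 5.22 CPM).

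Ccl22 was a gene of mature DCs in both libraries, somewhat lower there in the knockout library, and a larger share of it lay outside mature DCs in the knockout library. Mature DCs, which have taken up antigen and moved toward T cell contact, held 1042 Ccl22 UMIs in 110 knockout cells and 1812 in 160 control cells. Their level was 628 CPM (590 to 667) and 772 CPM (736 to 808), a ratio of 0.814 (0.753 to 0.879) that lies within 1.5-fold. Ccl22 was detected in 72 of 110 knockout cells (65.5%) and 125 of 160 control cells (78.1%), and in 53.3% and 64.2% after each cell was thinned to 4000 UMIs. The median positive cell had 4 UMIs if from the knockout library and 8 if from the control, and 16 and 23 cells had at least 20. B cells, as a type that should lack the gene, had a UMI in 0 of 118 knockout cells, which at a floor of 3 counts allows a share of cells with a UMI of up to 2.54%, and in 1 of 141 control cells, at median depths of 8250.5 and 5990 UMIs. In mature DCs 36.8% of 7581 measured genes passed 1.5-fold either way. The mature DCs also differed in markers of other cells. UMIs of the 4 melanoma markers were found in 14.5% of knockout and 80.6% of control mature DCs (10.2 and 140 CPM in sum), and those of the 6 macrophage markers in 27.3% and 86.3% (36.8 and 187 CPM), with no marker of either set at 0 UMIs. Their part in the mature DC values was not tested. Under each of the alternatives run the Ccl22 ratio in mature DCs stayed between 0.660 and 0.814. The lowest value, with 1 more marker required, is about 1.5-fold lower in the knockout library.

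By counts of cDC1 and cDC2 genes, the mature DCs of the 2 libraries differed in make-up. The ratio of Ccl22 lay on opposite sides of 1 among the kinds set in this way, a difference that was not tested. Whether the macrophage transcripts found in mature DCs moved cells between these kinds was not tested either. Mature DCs with more genes of the cDC1 set (Xcr1, Clec9a, Cadm1, Apol7c and Wdfy4) than of the cDC2 set (Sirpa, Cd209a, Itgam and Clec10a) were 71 of 110 in the knockout and 43 of 160 in the control library. Among them Ccl22 stood at 609 CPM (563 to 658) in the knockout group, against 429 CPM (382 to 480) in the control group, a ratio of 1.42 (1.24 to 1.63). Those with more cDC2 genes were 13 knockout and 52 control cells, at 664 and 950 CPM. Cells with as many of both were 26 and 65, at 658 and 896 CPM. Within the control library, mature DCs with more cDC2 genes had 2.21 times (1.93 to 2.54) the Ccl22 of those with more cDC1 genes, and within the knockout library 1.09 times (0.903 to 1.31). The mature DC list includes the 4 genes of the mature DC gate (Ccr7, Fscn1, Cacnb3 and Socs2), whose levels in mature DCs are partly set by that gate. Genes of the list passed 1.5-fold in mature DCs about as often as all measured genes. Of 16 4 were higher in the knockout library, 3 lower and 9 within 1.5-fold, where 22.6% of all measured genes were higher and 14.2% lower (median log2 ratio of CPM plus 5 of -0.20, against 0.15 over all measured genes). Cd40, the receptor for T cell help, stood at 747 and 324 CPM, Birc3, an inhibitor of apoptosis, at 861 and 427 CPM, and Il12b, a subunit of IL-12, at 1178 and 585 CPM. The lower ones were Ccl5 (2696 and 6575 CPM), Pdcd1lg2 (162 and 329 CPM) and Cd86 (516 and 809 CPM).

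Outside mature DCs, Ccl22 was higher in knockout cDC1 and lower in knockout cDC2. The cDC1, which cross-present antigen, held 168 Ccl22 UMIs in 265 knockout cells and 16 in 136 control cells, or 28.8 CPM (24.6 to 33.5) and 5.24 CPM (2.99 to 8.50). The ratio was 5.50 (3.29 to 9.84), where 17.7% of 8208 measured genes passed 1.5-fold either way. Ccl22 was detected in 10.2% of knockout and 3.68% of control cDC1. Genes of the mature DC list were also higher in the cDC1 of the knockout library, 8 of 11 measured with none lower (11.9% and 5.76% of all measured genes) and a median log2 ratio of 1.06, against 0.08 over all measured genes. The list includes the genes of the mature DC gate, and cells that met that gate had been taken out of cDC1 in both libraries. In cDC1, Il12b stood at 246 and 0.327 CPM and Cd40 at 176 and 30.8 CPM. The cDC2 held 167 and 132 Ccl22 UMIs, at 19.0 CPM (16.2 to 22.1) in knockout cells, against 48.0 CPM (40.2 to 56.9) in control cells, a ratio of 0.396 (0.313 to 0.502). Monocytes stood at 8.79 and 3.01 CPM (99 and 46 UMIs) and macrophages at 3.19 and 0.988 CPM (25 and 64 UMIs). Mature DCs held 61.6% (59.2 to 63.9) of all Ccl22 UMIs of the knockout library and 83.9% (82.3 to 85.4) of those of the control library. The cDC1 held 9.93% and 0.741%, and unassigned cells 9.16% and 2.18% (155 and 47 UMIs). The cDC2, more numerous in the knockout library, held 9.87% and 6.11% despite their lower level. These shares mix cell numbers with levels.

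By summed UMIs, Ccl17 was highest in cDC2 of both libraries, and its transcripts sat in very few cells. In cDC2 it had 903 UMIs in 49 of 527 knockout cells (9.30%) and 563 UMIs in 16 of 154 control cells (10.4%), or 103 CPM (96.2 to 110) and 205 CPM (188 to 222). The ratio of the sums was 0.502 (0.451 to 0.559), a lower level in the knockout library, where 21.1% of 8377 genes passed 1.5-fold either way and 7.54% were lower. The 1 cell with the most Ccl17 held 188 UMIs (20.8%) of the knockout sum and 259 UMIs (46.0%) of the control sum. Without those cells the ratio was 0.722, and with each cell given the same weight it was 1.10 (96.7 and 88.2 CPM), so the direction in cDC2 rests on a few cells. Counting intervals on Ccl17 are too narrow for the same reason. The place of cDC2 above mature DCs holds for sums only, as the share of cells with Ccl17 was no larger in cDC2.

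Mature DCs also had less Ccl17 in the knockout library when summed. They held 94 UMIs in 11 of 110 knockout cells (10.0%) and 337 UMIs in 31 of 160 control cells (19.4%), or 56.6 CPM (45.8 to 69.3) and 143 CPM (129 to 160). The ratio was 0.395 (0.311 to 0.498), and with each cell given the same weight it was 0.908. Again, 1 cell carried 38 UMIs (40.4%) of the knockout and 139 UMIs (41.2%) of the control sum. Every Ccl17-positive mature DC also had Ccl22, 11 of 11 knockout cells and 31 of 31 control cells. Ccl22 was found in 61.6% and 72.9% of the mature DCs without Ccl17. In cDC2, 14 of 49 Ccl17-positive knockout cells and 10 of 16 control cells had Ccl22. The kinds of mature DC differed for Ccl17 too. Those with more cDC1 genes stood at 54.3 CPM (57 UMIs in 7 of 71 cells) in the knockout and 18.3 CPM (13 UMIs in 6 of 43 cells) in the control library. Cells with as many genes of both sets stood at 63.7 CPM in the knockout and 311 CPM in the control library, where they hold the cell with 139 UMIs.

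**Figure D2:**
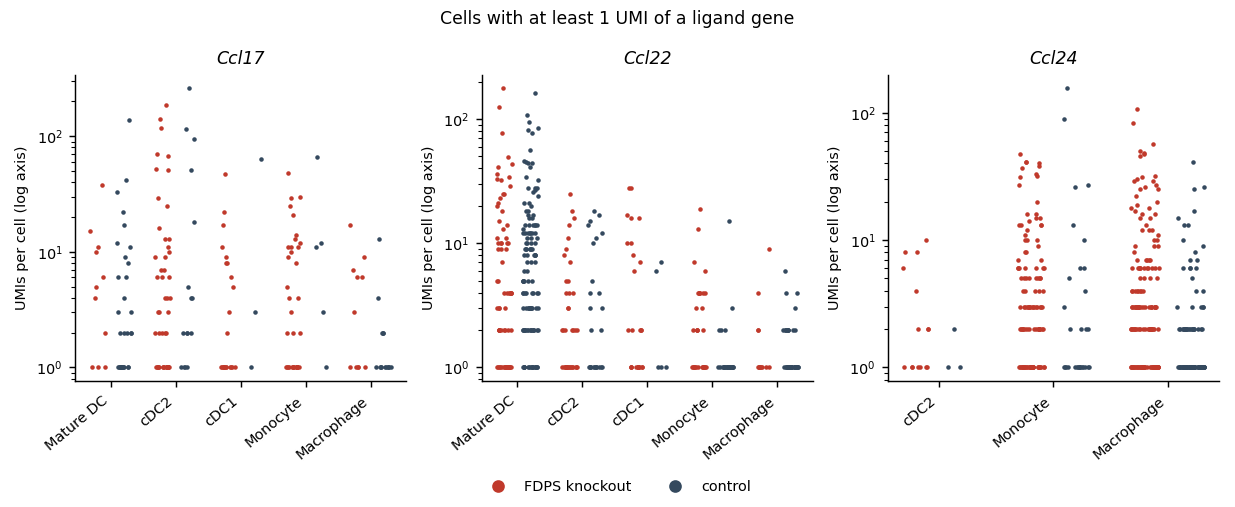
UMIs per cell (log axis) of Ccl17, Ccl22 and Ccl24 in cells with at least 1 UMI of the dendritic, monocyte and macrophage types named on the axis, knockout library (red) left of control library (dark). A few cells with over 100 UMIs stand far above the rest for Ccl17, up to 188 UMIs in a knockout and 259 UMIs in a control cDC2.

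Monocytes had more Ccl17 in the knockout library. They held 289 UMIs in 36 of 716 knockout cells (5.03%) and 93 UMIs in 5 of 1266 control cells (0.395%), at 25.6 CPM (22.8 to 28.8) and 6.08 CPM (4.90 to 7.44). The ratio was 4.22 (3.33 to 5.39), where 26.5% of 8084 genes passed 1.5-fold either way. In the control library 1 monocyte held 66 of the 93 UMIs, and without the top cell of each library the ratio was 12.1. Macrophages held 53 and 33 UMIs, at 6.77 and 0.509 CPM. In cDC1, Ccl17 stood at 25.7 CPM (150 UMIs in 23 of 265 cells) in the knockout and 21.9 CPM (67 UMIs in 3 of 136 cells) in the control library. In the control library 1 cDC1 held 63 of those 67 UMIs, and without the top cells the ratio moved to 13.4, against 1.17 with them. Unassigned cells held 374 knockout and 329 control UMIs of Ccl17, or 19.6% and 22.8% of all. In the control library 3 unassigned cells had 20 or more UMIs each.

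Most Ccl17 of knockout monocytes and macrophages (273 UMIs, against 69 in the rest) lay in cells with high Retnla, a gene of alternatively activated macrophages. Cells were called Retnla-high at 20 or more Retnla UMIs per 10000, a state found in 466 knockout monocytes and macrophages and in 0 of 4162 control ones. Ccl17 stood at 34.3 CPM (30.4 to 38.7) in these and 6.19 CPM (4.81 to 7.83) in the other 845, a ratio of 5.55 (4.25 to 7.34). Ccl22 went the other way, at 2.52 CPM in Retnla-high and 9.33 CPM in other cells, a ratio of 0.270 (0.158 to 0.438). Both genes still met in single cells, as Ccl22 was found in 8 of 36 Ccl17-positive knockout monocytes (22.2%) and in 3.38% of those without Ccl17. In knockout macrophages these shares were 3 of 11 (27.3%) and 1.54%. Among knockout cDC2, 36 were Retnla-high, and 11 of these held 445 of the 903 Ccl17 UMIs. The other 491 knockout cDC2 stood at 55.8 CPM of Ccl17, beside 56.6 CPM in knockout mature DCs.

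Ccl24 showed the widest gap of the 3 ligands, and most of it was in monocytes and macrophages. Macrophages held 1295 UMIs in 155 of 595 knockout cells (26.1%) and 338 UMIs in 99 of 2896 control cells (3.42%), or 165 CPM (156 to 175) and 5.22 CPM (4.68 to 5.81). The ratio was 31.7 (28.1 to 35.8), where 34.1% of 8361 genes passed 1.5-fold either way. After thinning, 16.9% of knockout and 1.13% of control macrophages had a UMI, although control macrophages were the deeper ones (median 10618 and 19458 UMIs). B cells had a UMI in 2 of 118 knockout cells (1.69%) and 1 control cell. Monocytes held 820 UMIs in 112 of 716 knockout cells (15.6%) and 367 UMIs in 30 of 1266 control cells (2.37%), at 72.8 CPM (67.9 to 77.9) and 24.0 CPM (21.6 to 26.6). In the control library 1 monocyte held 155 of the 367 UMIs, and the ratio of 3.04 (2.68 to 3.44) was 4.96 without the top cells. Knockout cDC2 held 49 UMIs and control cDC2 4 UMIs, at 5.58 and 1.46 CPM, where free RNA predicts 15.7 and 0.399 UMIs.

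Within the knockout library Ccl24 followed Retnla closely. Retnla-high monocytes and macrophages stood at 247 CPM (236 to 258), with Ccl24 in 215 of 466 cells (46.1%). Those without high Retnla stood at 13.9 CPM (11.8 to 16.3), with Ccl24 in 52 of 845 cells (6.15%), so the ratio was 17.7 (15.06 to 21.0). The separation held by type. Retnla-high monocytes stood at 150.5 CPM and other knockout monocytes at 0.855 CPM (5 UMIs in 430 cells). Retnla-high macrophages stood at 452 CPM and other knockout macrophages at 28.3 CPM (24.0 to 33.2). No control monocyte or macrophage was Retnla-high, so the other knockout cells are a selected part and are not set against the control library. A second set of cells with Ccl24 carried at least 2 of the resident-type genes Cd163, Cd209f, Folr2 and Lyve1. In these Ccl24 stood at 291 CPM in 113 knockout cells and 20.1 CPM in 165 control cells, a ratio of 14.5 (11.8 to 17.9). The 53 of these knockout cells that were not Retnla-high stood at 170 CPM. In the control library, cells with both Spp1 and Arg1, genes of hypoxic tumour macrophages, stood at 14.6 CPM (307 UMIs in 1041 cells, 155 of them in 1 cell). Ccl24 and Ccl17 were found together in 18 of 36 Ccl17-positive knockout monocytes, while 13.8% of the monocytes without Ccl17 had Ccl24.

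**Figure D3:**
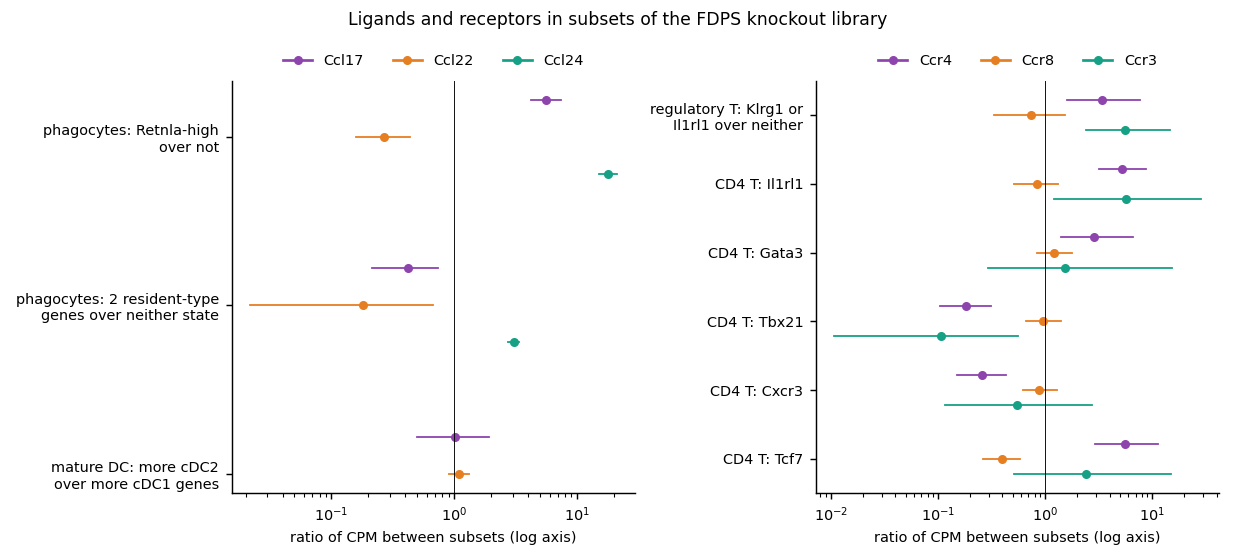
Ratios of CPM (log axis) between subsets of the knockout library, with 95% counting intervals, for the ligands (left: Retnla-high over other phagocytes, those with at least 2 resident-type genes over those with neither these nor both Spp1 and Arg1, and mature DCs with more cDC2 over those with more cDC1 genes) and the receptors (right: cells with a UMI of the named gene over cells without), with a vertical line at 1. Ccl24 and Ccl17 are higher in Retnla-high phagocytes (ratios 17.7 and 5.55) where Ccl22 is lower (0.270), and Ccr4 parts from Ccr8 in CD4 T cells.

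Other genes of the pathway in macrophages differed both ways. The list drawn up for STAT6 includes the resident-type genes Cd163, Cd209f, Folr2 and Lyve1, and a link of its genes to STAT6 was not tested. Of its 12 genes, 6 were higher in the knockout library, 2 lower and 4 within 1.5-fold. Among all measured genes 17.6% were higher and 16.5% lower. The median log2 ratio of the list was 1.21, against 0.02 over all measured genes. The highest were Retnla (11082 and 2.67 CPM), Cd209f, a C-type lectin (83.5 and 0.463 CPM), and the haemoglobin scavenger receptor Cd163 (162 and 8.51 CPM). The lower ones were Arg1, or arginase 1 (187 and 654 CPM), and the chitinase-like Chil3 (7.15 and 27.5 CPM). Of 9 measured genes of IL-4 and IL-13 signalling, 2 were higher and 2 lower. These were the transcription factor Irf4 (26.4 and 1.70 CPM), the kinase Tyk2 (61.5 and 31.5 CPM), the feedback inhibitor Socs1 (26.2 and 62.9 CPM) and the receptor chain Il4ra (65.4 and 125 CPM). Il1rl1, the receptor for the alarmin IL-33, stood at 27.1 and 0.340 CPM. Dpp4, a peptidase that trims chemokines, stood at 35.1 and 3.50 CPM. The other ligands of Ccr3, Ccr4 and Ccr8 were lower in knockout macrophages for 3 of 6 measured and higher for 1. Ccl7 stood at 145 and 959 CPM, Ccl2 at 321 and 1444 CPM, Ccl8, a ligand of Ccr8, at 489 and 1653 CPM, and Ccl9 at 599 and 386 CPM. In cDC2 the same list had 3 of 6 lower and 1 higher (13.5% of all measured genes were higher and 7.54% lower), with Ccl7 at 0.797 and 65.1 CPM, Ccl2 at 4.90 and 98.9 CPM, Ccl8 at 2.16 and 33.1 CPM and Ccl9 at 197 and 120 CPM. Free RNA predicts 1.03 and 14.5 CPM of Ccl7, 2.58 and 23.7 CPM of Ccl2 and 2.85 and 22.7 CPM of Ccl8 in cDC2. The list was also lower in types in which these ligands are less expected, for 5 of 5 measured in CD4 T cells (8.79% of all measured genes) and 5 of 5 in NK cells (5.14%). In CD4 T cells Ccl7 stood at 0.118 and 19.7 CPM, where free RNA predicts 0.380 and 16.02 CPM. In cDC2, Il1rl1 stood at 59.9 and 6.55 CPM and Irf4 at 66.2 and 41.1 CPM, while Pdcd1lg2 stood at 32.5 and 132 CPM and Cd274 at 130 and 331 CPM. Short genes tended to be lower in the knockout library. The shortest 25% of genes, which hold all 3 ligands with Ccr8 and Ccr3, had a median log2 ratio of -0.32 in mature DCs, -0.37 in macrophages and -0.33 in regulatory T cells. The part of gene span in the single ratios was not tested.

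Ccr4 and Ccr8 were more frequent in the knockout library as a whole, and Ccr3 was not. Ccr4 had 202 UMIs in 115 knockout cells and 28 UMIs in 21 control cells, at 1.79 and 0.163 CPM, a ratio of 10.99 (7.38 to 16.96). Ccr8 had 413 UMIs in 236 knockout cells and 211 UMIs in 134 control cells, at 3.65 and 1.23 CPM, a ratio of 2.98 (2.52 to 3.54). Ccr3 had 88 UMIs in 61 knockout cells and 114 UMIs in 85 control cells, at 0.779 and 0.662 CPM, a ratio of 1.18 (0.880 to 1.57). The ratios differed within single types. Ccr4 stood at a ratio of 1.88 in regulatory and 0.725 in CD4 T cells. Ccr8 had ratios below 1 in regulatory (0.441), CD4 (0.790), CD8 (0.589) and the remaining T cells (0.522). For Ccr3 the ratio was 1.02 in regulatory, 0.591 in CD8 and 0.366 in the remaining T cells. The CD4 and regulatory T cells that carry the receptors were more numerous in the knockout library. B cells had no UMI of any of the 3 receptor genes in 118 knockout and 141 control cells, which allows shares of cells with a UMI of up to 2.54% and 2.13%.

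**Figure D4:**
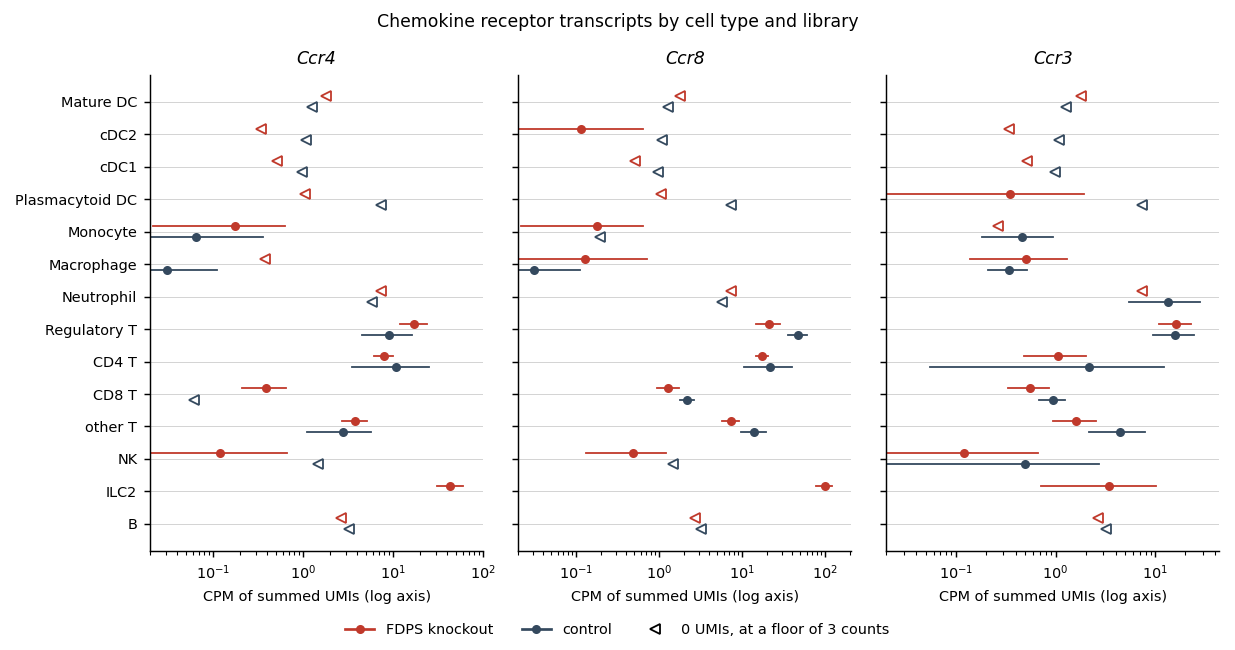
CPM (log axis) of Ccr4, Ccr8 and Ccr3 in each cell type with at least 30 cells, knockout library (red) above control library (dark), with exact Poisson 95% intervals, and open triangles for 0 UMIs drawn at a floor of 3 counts. ILC2, present in the knockout library only, stand highest for Ccr4 and Ccr8 (43.7 and 98.8 CPM). Regulatory T cells of both libraries stand highest for Ccr3 (16.2 and 15.8 CPM). Control neutrophils come next to control regulatory T cells (13.5 CPM), and their intervals overlap.

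Ccr4 was found in regulatory T cells, CD4 T cells and ILC2, and the counts of the first 2 types were too few to separate the libraries. Regulatory T cells, which restrain immune responses, held 33 UMIs in 24 of 157 knockout cells (15.3%) and 11 UMIs in 7 of 71 control cells (9.86%). Their level was 17.3 CPM (11.9 to 24.2) and 9.17 CPM (4.58 to 16.4), a ratio of 1.88 whose interval (0.928 to 4.13) holds 1, although the ratio passes 1.5-fold as did 33.8% of 8381 genes. Other CD4 T cells held 67 UMIs in 39 of 655 knockout cells (5.95%) and 5 UMIs in 3 of 57 control cells (5.26%), at 7.93 and 10.9 CPM, a ratio of 0.725 (0.296 to 2.31). T cells that the gate placed in none of the CD4, CD8 and regulatory types stood at 3.78 CPM (40 UMIs) and 2.79 CPM (7 UMIs). They include T cells with UMIs of Cd4 together with Cd8a or Cd8b1. Those without Cd4, Cd8a and Cd8b1, 686 of 905 knockout and 142 of 205 control cells, held 10 and 3 of these UMIs. CD8 T cells held 14 UMIs in 9 of 2156 knockout cells and 0 UMIs in 1825 control cells, where free RNA predicts 1.98 and 0.172 UMIs. The 87 ILC2 of the knockout library held 38 UMIs in 14 cells (16.1%), at 43.7 CPM (30.9 to 59.9), with 13 of the UMIs in 1 cell. These cells were marked by Gata3, Il1rl1 and Rora in all 87 cells and Il7r in 86. Their mast cell markers were at 0 UMIs for Mcpt4, Cma1, Tpsb2, Ms4a2 and Fcer1a, with Cpa3 in 2 cells and Kit, which ILC2 can also carry, in 48.

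Among CD4 T cells of the knockout library, Ccr4 went with the marks of type 2 and memory-like cells and not with those of type 1 cells. Cells with a UMI of Il1rl1 stood at 23.6 CPM (36 UMIs in 77 cells) and those without at 4.48 CPM (31 UMIs in 578 cells), a ratio of 5.27 (3.17 to 8.80). One of these cells held 12 of those 36 UMIs. For Gata3, the type 2 master regulator, the ratio was 2.85 (1.40 to 6.55). For Tbx21, which encodes the type 1 regulator T-bet, it was 0.183 (0.104 to 0.310), and for Cxcr3, the chemokine receptor of type 1 cells, 0.258 (0.151 to 0.434). For Tcf7, a factor of memory-like cells, it was 5.52 (2.92 to 11.3). Regulatory T cells with Klrg1 or Il1rl1, marks of tissue-type regulatory cells, stood at 32.5 CPM (21 UMIs in 53 cells) in the knockout library and those without at 9.49 CPM (12 UMIs in 104 cells), a ratio of 3.43 (1.61 to 7.64). In the control library the counts were 10 UMIs in 38 cells with and 1 UMI in 33 cells without, a ratio of 8.34 (1.19 to 362).

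Ccr8 was lower in regulatory T cells of the knockout library. It had 40 UMIs in 22 of 157 knockout cells (14.0%) and 57 UMIs in 26 of 71 control cells (36.6%), or 20.9 CPM (14.96 to 28.5) and 47.5 CPM (36.0 to 61.6). The ratio was 0.441 (0.286 to 0.672), and it stayed between 0.350 and 0.484 under the alternatives run. After thinning, 5.52% of knockout and 17.1% of control regulatory T cells had a UMI. The gap was wider in the cells without Klrg1 and Il1rl1, a difference that was not tested, at 22.9 CPM (29 UMIs in 104 cells) in the knockout and 75.2 CPM (41 UMIs in 33 cells) in the control library, a ratio of 0.305 (0.183 to 0.503). Cells with Klrg1 or Il1rl1 stood at 17.03 CPM (11 UMIs) and 24.5 CPM (16 UMIs), a ratio of 0.696 (0.292 to 1.60). Dividing regulatory T cells, with Mki67 or Top2a, stood at 20.8 CPM in knockout against 44.8 CPM in control tumours, a ratio of 0.464 (0.270 to 0.784). The wider set of regulatory T effector genes did not share this direction. Of 14 genes, 6 were higher in the knockout library, 1 lower and 7 within 1.5-fold, where 19.8% of all measured genes were higher and 14.0% lower, with a median log2 ratio of 0.25 against 0.10 over all measured genes. Il10, an anti-inflammatory cytokine, stood at 174 and 38.3 CPM, Il1rl1 at 67.0 and 17.5 CPM, Tigit, an inhibitory receptor, at 146 and 67.5 CPM, and the costimulatory receptor Tnfrsf9 at 380 and 808 CPM. Of 7 measured other chemokine and egress receptors in regulatory T cells, Cxcr4 (55.5 and 15.01 CPM), S1pr1 (54.95 and 17.5 CPM) and Ccr2 (309 and 196 CPM) were higher and Ccr7 (2.62 and 21.7 CPM) lower.

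In the other T cells the Ccr8 ratio was nearer 1, and its difference from that of regulatory T cells was not tested. CD4 T cells held 146 UMIs in 96 of 655 knockout cells (14.7%) and 10 UMIs in 6 of 57 control cells (10.5%), at 17.3 and 21.9 CPM, a ratio of 0.790 (0.418 to 1.68), where 21.5% of 8489 genes passed 1.5-fold either way. The T cells outside the named subsets stood at 7.28 CPM (77 UMIs) and 14.0 CPM (35 UMIs), a ratio of 0.522 (0.346 to 0.802), where 29.9% of 8665 genes passed. Those of them without Cd4, Cd8a and Cd8b1 held 12 and 6 of these UMIs. CD8 T cells held 47 UMIs in 37 of 2156 knockout cells and 106 UMIs in 81 of 1825 control cells, at 1.30 and 2.20 CPM, a ratio of 0.589 (0.409 to 0.839). Free RNA predicts 4.06 and 1.30 UMIs there. ILC2 stood at 98.8 CPM (79.0 to 122) with Ccr8 in 22 of 87 cells (25.3%), 20 of the 86 UMIs in 1 cell. Unlike Ccr4, Ccr8 in knockout CD4 T cells showed no clear split by Il1rl1 (ratio 0.848, 0.518 to 1.33), Gata3 (1.21, 0.834 to 1.80), Tbx21 (0.956, 0.661 to 1.41) or Cxcr3 (0.887, 0.622 to 1.28). It was lower in CD4 T cells with Tcf7, at 9.39 CPM (36 UMIs), than in those without, at 23.8 CPM (110 UMIs), a ratio of 0.394 (0.263 to 0.579). Cells with both receptors were few in each type. Ccr8 was found in 1 of 24 Ccr4-positive knockout regulatory T cells and 1 of 7 control ones, and in 15.8% and 39.1% of those without Ccr4. In knockout CD4 T cells 4 of 39 Ccr4-positive cells had Ccr8 (10.3%, against 14.9% without Ccr4), and in ILC2 5 of 14. In the T cells outside the named subsets, Ccr8 was found in 4 of 22 Ccr4-positive knockout cells (18.2%, against 4.76% without Ccr4) and 3 of 6 control cells (against 7.54% without Ccr4). These counts are too few to order the types.

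Among lymphocytes Ccr3 stood highest in regulatory T cells, and it did not differ there beyond counting error. They held 31 UMIs in 18 of 157 knockout cells (11.5%) and 19 UMIs in 8 of 71 control cells (11.3%), or 16.2 CPM (11.02 to 23.0) and 15.8 CPM (9.54 to 24.7), a ratio of 1.02 (0.561 to 1.92). In the knockout library Ccr3 was higher in regulatory T cells with Klrg1 or Il1rl1, at 35.6 CPM (23 UMIs in 53 cells), than in those without, at 6.33 CPM (8 UMIs in 104 cells), a ratio of 5.63 (2.43 to 14.55). The control values were 21.4 CPM (14 UMIs in 38 cells) and 9.17 CPM (5 UMIs in 33 cells), a ratio of 2.34 (0.795 to 8.28). CD8 T cells held 20 and 45 UMIs, at 0.552 and 0.934 CPM, a ratio of 0.591 (0.330 to 1.02), where 0.864 and 0.701 UMIs are predicted from free RNA. Neutrophils had 0 UMIs in 80 knockout cells and 7 UMIs in 5 of 106 control cells (13.5 CPM, 5.44 to 27.9). ILC2 had 3 UMIs. Eosinophils, the best known Ccr3 cells, had a marker set in the gate, but no retained cell was assigned to them. In regulatory T cells, 3 of 4 eosinophil markers had 0 UMIs in the knockout library and 2 of 4 in the control library. The others had 1 and 2 UMIs.

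Set side by side, the sources of the ligands and the carriers of the receptors differed between the libraries. The largest share of Ccl17 lay in cDC2 (47.4% of its knockout UMIs and 39.1% of its control UMIs). Monocytes gave 15.2% and 6.46%, and mature DCs 4.93% and 23.4%. Ccl24 came mainly from macrophages (48.9% and 46.8%) and monocytes (30.9% and 50.8%), although macrophages made up 7.38% of knockout but 33.7% of control cells. Unassigned cells held 14.5% and 0.970% of the Ccl24 UMIs. Ccr4 UMIs lay in CD4 T cells (33.2% and 17.9%), T cells outside the named subsets (19.8% and 25%), ILC2 (18.8% and none) and regulatory T cells (16.3% and 39.3%). For Ccr8, CD4 T cells held 35.4% of knockout and 4.74% of control UMIs and CD8 T cells 11.4% and 50.2%. The rest of Ccr8 lay mainly in ILC2 (20.8% and none), T cells outside the named subsets (18.6% and 16.6%) and regulatory T cells (9.69% and 27.01%). For Ccr3, regulatory T cells held 35.2% and 16.7%, and CD8 T cells 22.7% and 39.5%.

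**Figure D5:**
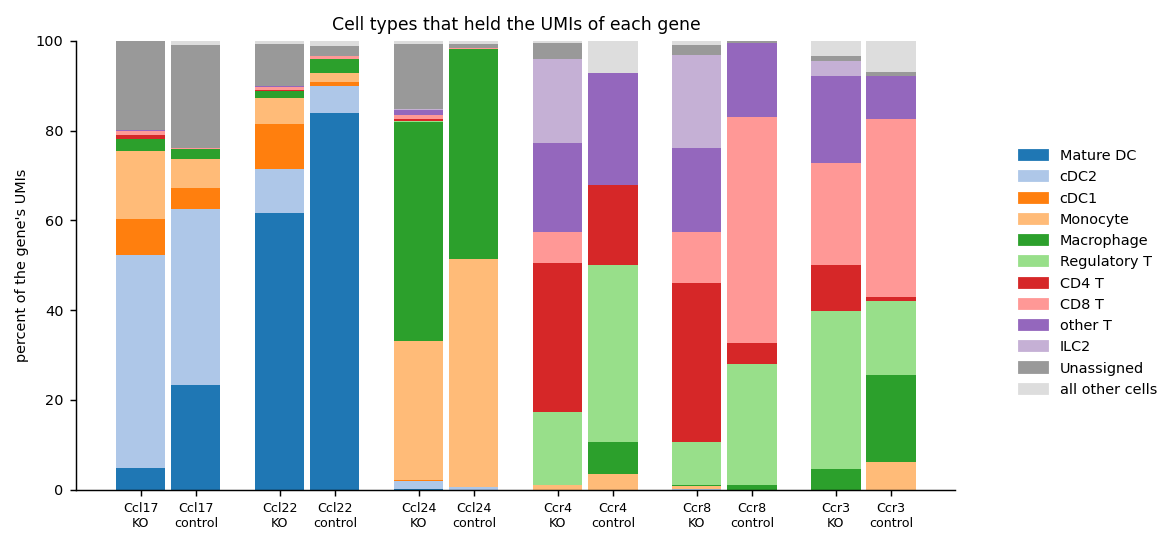
Percent of the UMIs of each of the 6 genes held by each cell type, with the knockout bar left of the control bar for each gene. Mature DCs hold most Ccl22 in both libraries (61.6% and 83.9%), and ILC2 hold 18.8% of the Ccr4 UMIs of the knockout library.

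The genes whose levels ran most like each of the 6 were taken from Pearson correlations of log2(CPM + 5) over 27 points, 14 cell types of the knockout and 13 of the control library, among 12268 genes. The points share libraries and depth, so the values are descriptions. Ccl17 ran most like Nectin1 (r = 0.948), Adam23 (0.921), Avpi1 (0.916), Zfp366 (0.904) and Spred3 (0.890). Ccl22 ran most like Arhgap28 (0.960), Gm50069 (0.955), Arhgef40 (0.949), Map3k14 (0.942) and Stbd1 (0.942). The r between Ccl17 and Ccl22 was 0.838, which placed Ccl22 at rank 23 for Ccl17. Ccl24 ran most like Gm13814 (0.951), Ms4a8a (0.904), Hpgd (0.901), Fn1 (0.895) and Rnase2a (0.894). Its r was 0.145 with Ccl17 and -0.007 with Ccl22. Ccr4 ran most like Map6 (0.964), Ccr8 (0.957), Tnfrsf25 (0.924), Bmp7 (0.919) and Col18a1 (0.918). Ccr8 ran most like Ccr4 (0.957), Map6 (0.945), Adarb1 (0.930), Spry1 (0.917) and Gm15511 (0.915). Ccr3 was less closely followed by any gene, led by Gm48893 (0.829), Flicr (0.790), Ankrd6 (0.787), Gm50397 (0.783) and Bmpr1a (0.780).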

How the data were processed

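Single cells sorted from tumours were profiled with 10x Genomics libraries, 1 per group. The deposited matrices hold counts of UMIs per gene and barcode, which per the file headers come from Cell Ranger 7.2.0; the submitters' processing notes name mm10. The libraries held 9130 knockout barcodes with 127186298 UMIs and 10882 control barcodes with 208936136 UMIs. Barcodes with at least 200 genes and under 10% mitochondrial UMIs were kept (this limit removed 4.67% and 13.5%). The cells with the highest Scrublet scores (scanpy 1.11.5) were removed at 0.8% per 1000 barcodes (635 and 820 cells), because the automatic threshold marked 0% and 1.70%. Cell types were gated per cell on the UMIs of marker sets per 10000 and the number of markers found. The gate's thresholds were set after comparing it with Leiden clusters: 82.3% of 14840 gated cells lay in a cluster of the same class. UMIs were summed per type and library and scaled to CPM. Ratios are knockout over control. A gene was measured at a mean of at least 10 CPM, and higher or lower means past 1.5-fold on log2(CPM + 5), in types with at least 30 cells per library. Intervals are exact Poisson for levels, Clopper-Pearson for shares (a limit of 3 counts where none was found) and conditional binomial for ratios, and cover counting error only. The ratio and call steps were tested on simulated data. Named genes were the 6, the list genes past 1.5-fold with the 3 highest and 3 lowest log2 ratios in the type where a gene was highest, and the 5 genes most like each. Of the motifs, the NF-kappaB pattern was narrowed after its first matches were seen. The members, lists and subsets were chosen with earlier results of these data known. Alternatives are in the closing section.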

Additional observations from a re-analysis of the deposited data

Results flagged for a closer look

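The ratio of Ccl17, knockout over control, was 4.22 in monocytes and 0.395 in mature DCs, so the same gene stood on opposite sides in these types. The ratio of Ccl22 was 5.50 in cDC1 and 0.396 in cDC2. With 1 library per group neither difference between types was tested. Single cells weigh on the Ccl17 values: 1 control monocyte held 66 of 93 UMIs and 1 control mature DC held 139 of 337.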

How the results depend on the processing

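No paired analysis was possible because each group has 1 library and its tumours cannot be told apart, and no replicate could be left out. The ratios of Ccr4, Ccr8 and Ccr3 in regulatory T cells stayed within their counting intervals under every alternative run. With cell types from Leiden clusters, the ratio of Ccl17 in mature DCs was 0.696 and in cDC2 0.190, that of Ccl22 in mature DCs 0.693 and that of Ccl24 in macrophages 12.9. By these clusters macrophages held 337 knockout and 490 control Ccl24 UMIs, against 1295 and 338 by the gate. How much Ccl24 is credited to knockout macrophages thus depends on how cells are assigned. With 1 more marker required, Ccl17 and Ccl22 in mature DCs were at 0.574 and 0.660. With each cell scaled to the same total, Ccl17 was at 0.908 in mature DCs and reversed to 1.10 in cDC2, and Ccl24 in macrophages was at 42.7. Ccl22 in mature DCs was at 0.714 with no cells removed as doublets, 0.731 with a mitochondrial limit of 20% and 0.722 when the libraries were scaled by a median of gene ratios. Without the cell with the most UMIs in each library, an alternative added after seeing the data, Ccl17 in cDC2 was at 0.722. The causes were not tested. Among the other ratios 66 values stayed within their intervals and 18 moved. The ranges that crossed 1 were those of Ccl17 in cDC2 (0.190 to 1.10) and cDC1 (0.922 to 13.4), Ccr3 in regulatory T cells (0.844 to 1.15), Ccr4 in CD4 T cells (0.690 to 1.58) and Ccr8 in CD4 T cells (0.751 to 1.30). By Spearman rho, 0 of the 5 genes named for Ccl17 and 1 of the 5 for Ccl22 stayed among the top 5. None of those named for Ccl24, Ccr8 and Ccr3 stayed there either. Of those named for Ccr4, only Ccr8 (rank 2) and Bmp7 (rank 5) did. Hpgd, named for Ccl24, fell to rank 1014. Ligand UMIs gathered in few cells, which depth does not mend. Receptor counts in control CD4 T cells (5 UMIs of Ccr4, 10 of Ccr8 and 1 of Ccr3) limit what their ratios can show.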

Other observations

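A few other values of the 6 genes belong to no comparison above. Unassigned knockout cells that were Retnla-high, 118 cells, held 304 UMIs of Ccl17 and 375 UMIs of Ccl24, at 404 and 498 CPM. In T cells outside the named subsets, Ccl24 had 33 UMIs in 8 knockout cells, 19 of them in 1 cell, against 8.91 predicted from free RNA, and 0 UMIs in 205 control cells. Knockout CD8 T cells with Tcf7 had Ccr4 at 1.01 CPM (10 UMIs in 725 cells) and those without at 0.152 CPM (4 UMIs in 1431 cells). Ccr8 in knockout CD8 T cells ran the other way, at 0.505 CPM (5 UMIs) with Tcf7 and 1.59 CPM (42 UMIs) without.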
